A study of Mus musculus with 6 samples.

Results

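Collagen chains are modified in the endoplasmic reticulum before they fold and are joined by covalent bonds once they lie outside the cell. Described here are 10 genes of these steps in 3T3-L1 cells, a mouse embryonic line of fibroblast-like preadipocytes able to become fat cells under culture conditions. They are the lysyl oxidase genes Lox, Loxl1, Loxl2, Loxl3 and Loxl4, the lysyl hydroxylase genes Plod1 and Plod2, the prolyl 4-hydroxylase subunit genes P4ha1 and P4ha2, and the collagen chaperone gene Serpinh1. The genes were chosen by name and found by identifier in tables of 54752 genes, and all 10 were present. RNA was sequenced from 3 preadipocyte and 3 adipocyte libraries with no genetic change or treatment in the labels, which give the strain as C57BL/6J and the tissue as embryo for both groups. The growth description is the same for all 6 samples and names serum media and DMI, an abbreviation it leaves unexplained. The source name reads Adipocyte for every sample, and the grouping used here follows the titles and the cell type field. No label says that the replicates came from separate cultures. The p-values therefore measure the spread of these libraries alone, and that spread may be technical.

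Prolyl 4-hydroxylase adds hydroxyl groups to proline in collagen chains, which keeps the triple helix stable at body temperature. Lysyl hydroxylases modify lysine, and the modified residues determine which kind of cross-link can form later. HSP47, the product of Serpinh1, binds the folded procollagen helix until it leaves the endoplasmic reticulum. Lysyl oxidases are secreted copper enzymes that oxidise lysine in collagen and elastin and so start the cross-links that make the fibrils stiff. Cells that turn into fat cells are known to exchange a fibrillar matrix for one richer in basement membrane.

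Each library held between 22496486 and 26314076 expected counts. The labelled states were checked against their markers. The 6 adipocyte markers (Adipoq, Plin1, Fabp4, Cidec, Lpl and Pparg) summed to 780 to 907 CPM (counts scaled to a common library size after TMM normalisation) in preadipocytes, nearly all of it Lpl, and to 27380 to 27500 CPM in adipocytes. The 6 preadipocyte and fibroblast markers (Dlk1, Pdgfra, Pdgfrb, Thy1, Ly6a and Cd34) summed to 5113 to 6108 and 302 to 379 CPM. In RNA from whole cultures, fewer cells of a type and less RNA per cell cannot be told apart, and this holds for every difference below. Macrophage markers summed to at most 6.38 CPM, endothelial markers to at most 1.42 CPM and epithelial markers to at most 0.467 CPM in any library. Adgre1, a defining macrophage marker, had 0 counts in all 6 libraries. The 2 tested macrophage markers, Csf1r and Cd14, were lower in adipocytes (log2 fold change -3.29 and -0.88), as were 37.9% of all tested genes. Cd14 lost its call without preadipocyte replicate 1 (edgeR adjusted p = 0.0722).

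Of the 10 genes, 9 were lower and 1 was higher in adipocytes than in preadipocytes (quasi-likelihood test of edgeR, p-values adjusted by Benjamini-Hochberg over 14726 genes). Over all tested genes 37.9% were lower and 35.7% were higher, 73.5% in all. The fall was of at least 8-fold for Lox, Loxl3 and Loxl4, against 6.27% of all tested genes, and of at least 2-fold for 7 genes, against 21.8%. The median log2 fold change was -1.25 for the 10 genes and -0.06 for all tested genes. In CPM the groups did not overlap for any of the 10, as for 76.5% of all tested genes. In 9 of the 10 the adipocyte libraries were the lower ones, as for 39.7% of all tested genes. Without TMM scaling the median gene shifted by -0.33 under total counts and by -0.48 in limma on log2(TPM + 1), and higher genes went from 48.5% of calls to 34.3% and 28.2%. Under both settings 9 of the 10 genes were still lower and 1 higher. Together the 10 genes took 0.599% to 0.655% of counts in preadipocytes and 0.0916% to 0.106% in adipocytes.

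**Figure D1:**
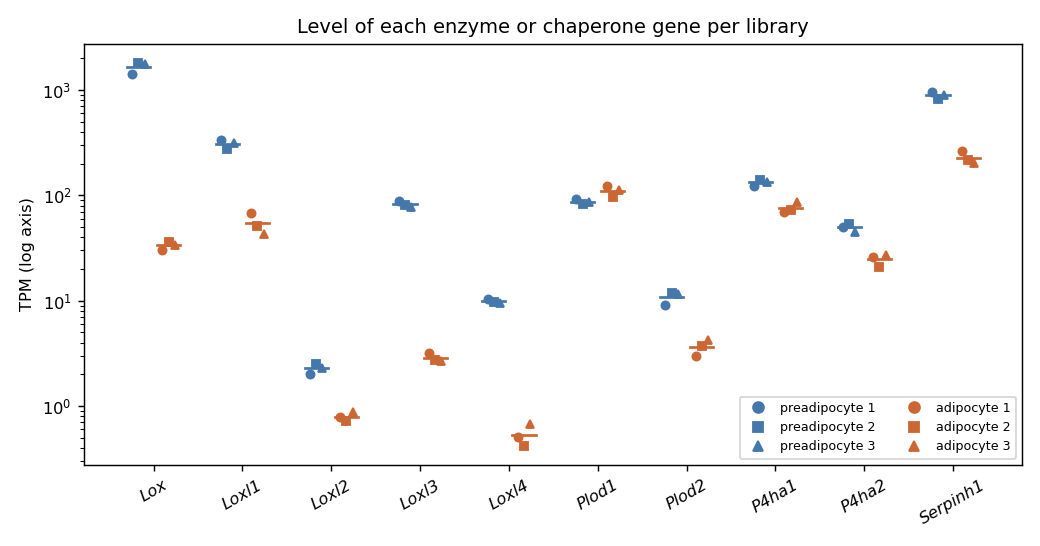
TPM (a level per transcript length) of each gene on a log axis, by library, with preadipocytes in blue, adipocytes in orange, a marker shape per library number and a line at the mean of 3. Lox goes from 1414 to 1805 TPM in preadipocytes to 30.6 to 36.2 TPM in adipocytes, and Plod1 alone is higher in adipocytes.

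**Figure D2:**
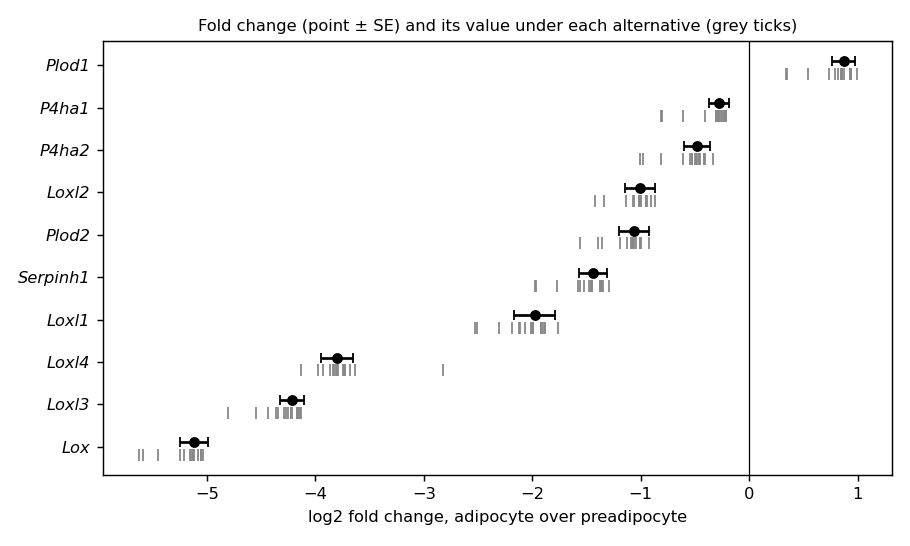
Fitted log2 fold change of each gene, adipocyte over preadipocyte, with its standard error (black), and its value under each of 17 alternative settings (grey ticks). All ticks of a gene lie on the same side of 0, from -5.63 for Lox to 0.99 for Plod1.

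Lox (ENSMUSG00000024529.13, chromosome 18, 52516067 to 52529867, GRCm38) encodes the founding member of the lysyl oxidases, which cross-links collagen and elastin. It measured 3109, 3861 and 3768 CPM in preadipocyte libraries 1 to 3 and 93.4, 112.7 and 102.7 CPM in adipocyte libraries 1 to 3. Every preadipocyte library stood far above every adipocyte library. The fall was of 34.8-fold (log2 fold change -5.12, SE 0.13, edgeR adjusted p = 4.38e-09), the largest among the 10 genes. By TPM, Lox ranked between 75 and 113 among all genes in preadipocytes and between 3485 and 3975 in adipocytes.

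Loxl1 (ENSMUSG00000032334.10, chromosome 9, 58287738 to 58313186) encodes a lysyl oxidase tied to elastic fibre assembly. Its levels were 599.5, 463.4 and 520.2 CPM in preadipocytes and 172.1, 125.5 and 102.7 CPM in adipocytes. The adipocyte libraries differed among themselves more than for Lox, but all were below the lowest preadipocyte library. The fall was of 3.95-fold (log2 fold change -1.98, SE 0.19, edgeR adjusted p = 1.27e-05).

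Loxl3 (ENSMUSG00000000693.10, chromosome 6, 83034173 to 83052562) and Loxl4 (ENSMUSG00000025185.14, chromosome 19, 42593982 to 42612813) belong to the branch of the family with scavenger receptor domains. Loxl3 measured 161.1, 141.6 and 137.3 CPM in preadipocytes and 8.69, 7.38 and 7.44 CPM in adipocytes. It fell 18.7-fold (log2 fold change -4.22, SE 0.11, edgeR adjusted p = 5.17e-09). Loxl3 overlaps Htra2, a mitochondrial protease gene on the opposite strand, over 1297 bases, and without a statement on strand the reads there cannot be told apart. Htra2 held 1259 to 1585 expected counts in preadipocytes and 1083 to 1430.5 in adipocytes, against 158 to 201 for Loxl3 in adipocytes. Loxl4 measured 20.98, 18.4 and 18.2 CPM in preadipocytes and 1.38, 1.12 and 1.60 CPM in adipocytes. It fell 13.9-fold (log2 fold change -3.80, SE 0.15, edgeR adjusted p = 5.47e-08), and its adipocyte values rest on 24 to 37 counts per library.

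Loxl2 (ENSMUSG00000034205.16, chromosome 14, 69609068 to 69695834), of the same branch, was the least abundant of the family in preadipocytes. It measured 5.95, 6.95 and 6.35 CPM in preadipocytes and 3.24, 2.90 and 3.42 CPM in adipocytes, from 61.6 to 176.4 expected counts per library. It fell 2.01-fold (log2 fold change -1.01, SE 0.14, edgeR adjusted p = 0.000156). The antisense gene Gm27177, which overlaps Loxl2, held at most 18.5 counts.

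Since the members of the family fell by different amounts, their mix differed between the states. Lox made up 76.4%, 83.0% and 81.6% of the summed TPM of the 5 lysyl oxidase genes in the preadipocyte libraries, and 29.6%, 39.6% and 41.7% in the adipocyte libraries. The share went from 80.3% ± 3.49 to 36.97% ± 6.50 (SD, n = 3), with no overlap (exact two-sided permutation test, p = 0.10, the smallest that 3 against 3 libraries allow). Loxl1 took 12.8% to 18.2% in preadipocytes and 53.0% to 66.1% in adipocytes, where it was the most abundant lysyl oxidase message in each library. Loxl3 held 4.04% ± 0.681 and 3.12% ± 0.178, and Loxl2 held 0.106% to 0.116% in preadipocytes and 0.764% to 1.08% in adipocytes. The summed TPM of the family was 2072 ± 191 in preadipocytes and 91.9 ± 11.3 in adipocytes (SD, n = 3), a ratio of 22.5.

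**Figure D3:**
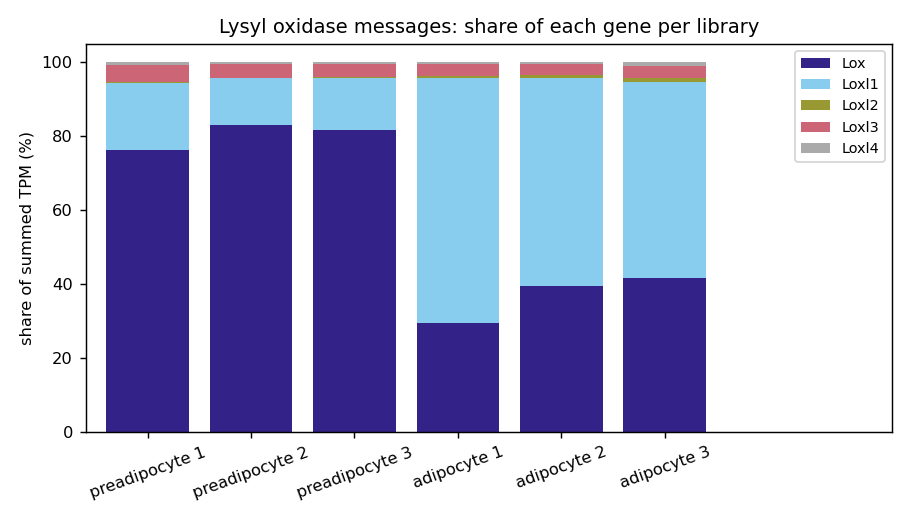
Share of each gene in the summed TPM of the 5 lysyl oxidase genes (percent), 1 bar per library. Lox takes 76.4% to 83.0% of each preadipocyte bar and 29.6% to 41.7% of each adipocyte bar, and Loxl1 is the largest part of each adipocyte bar.

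Plod1 (ENSMUSG00000019055.15, chromosome 4, 147909753 to 147936767) encodes lysyl hydroxylase 1, which acts on lysines in the helical part of collagen, and was the single gene of the 10 that rose. It measured 155.5, 131.8 and 137.5 CPM in preadipocytes and 292.7, 229.3 and 255.3 CPM in adipocytes. Every adipocyte library was above every preadipocyte library. The rise was of 1.83-fold (log2 fold change 0.87, SE 0.11, edgeR adjusted p = 8.44e-05). It was 0.54 on the log2 scale when scaled by total counts and 0.34 in limma on log2(TPM + 1), past the threshold under each of the 17 alternatives.

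Plod2 (ENSMUSG00000032374.14, chromosome 9, 92542223 to 92608428) encodes lysyl hydroxylase 2, which acts on the telopeptides at the ends of collagen and is linked to the stable cross-links of fibrotic tissue. Its levels were 17.4, 20.7 and 19.9 CPM in preadipocytes and 7.61, 9.86 and 10.3 CPM in adipocytes. The groups stood apart, and the fall was of 2.09-fold (log2 fold change -1.06, SE 0.14, edgeR adjusted p = 0.000103). The log2 ratio of Plod2 to Plod1 in TPM was -3.32, -2.79 and -2.88 in preadipocytes and -5.36, -4.72 and -4.72 in adipocytes. The mean difference was -1.94, a 3.83-fold lower ratio (exact two-sided permutation test, p = 0.10, the smallest possible here). Within each library the ratio was lower in the adipocyte state than in any preadipocyte library, and such a ratio does not depend on scaling between libraries.

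P4ha1 (ENSMUSG00000019916.14, chromosome 10, 59323296 to 59373304) and P4ha2 (ENSMUSG00000018906.14, chromosome 11, 54100095 to 54131665) encode alternative catalytic subunits of prolyl 4-hydroxylase. P4ha1 measured 197.2, 215.7 and 207.8 CPM in preadipocytes and 157.7, 162.5 and 191.0 CPM in adipocytes. The highest adipocyte library came close to the lowest preadipocyte library, and the fall of 1.21-fold was the smallest of the 9 (log2 fold change -0.28, SE 0.092, edgeR adjusted p = 0.0215). Its call was lost without preadipocyte replicate 2 or 3 (adjusted p = 0.0757 and 0.0635), without adipocyte replicate 1 or 2 (adjusted p = 0.062 and 0.129) and when genes of low count were kept (adjusted p = 0.0973), in a range of 0.000109 to 0.129 over the alternatives. Its log2 fold change was -0.61 when scaled by total counts and -0.80 in limma on log2(TPM + 1).

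P4ha2 measured 54.6, 53.3 and 48.4 CPM in preadipocytes and 41.5, 31.1 and 39.2 CPM in adipocytes. It fell 1.40-fold without overlap (log2 fold change -0.48, SE 0.12, edgeR adjusted p = 0.00455). Without adipocyte replicate 2, its lowest library, the log2 fold change was -0.33. It was -0.81 when scaled by total counts and -0.98 in limma on log2(TPM + 1). The log2 ratio of P4ha2 to P4ha1 in TPM was -1.43 ± 0.14 in preadipocytes and -1.63 ± 0.18 in adipocytes (SD, n = 3), and the groups overlapped (exact two-sided permutation test that ignores the library numbers, p = 0.20). By library number it was -1.31, -1.39 and -1.57 in preadipocytes and -1.43, -1.77 and -1.69 in adipocytes, lower in the adipocyte library of each number. A paired test was not run on this ratio.

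Serpinh1 (ENSMUSG00000070436.12, chromosome 7, 99345376 to 99353239) was the second most abundant of the 10 genes per length in preadipocytes and the most abundant in adipocytes. It measured 1099, 877 and 951 CPM in preadipocytes and 422, 340.5 and 313 CPM in adipocytes. All adipocyte libraries were below all preadipocyte libraries. It fell 2.72-fold (log2 fold change -1.44, SE 0.13, edgeR adjusted p = 1.07e-05). In TPM the order in preadipocytes was Lox, Serpinh1, Loxl1, P4ha1, Plod1, Loxl3, P4ha2, Plod2, Loxl4 and Loxl2. The ranges of Plod1 and Loxl3 overlapped, as did those of Plod2 and Loxl4. In adipocytes the order was Serpinh1, Plod1, P4ha1, Loxl1, Lox, P4ha2, Plod2, Loxl3, Loxl2 and Loxl4, and the ranges of Plod2 and Loxl3 overlapped.

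Lox was left out of the promoter search beforehand, so whether a promoter was available for it was not examined. Of the 10 genes, 5 had promoters taken from the RefSeq promoter table (GRCm38.p6), Loxl4, Plod1, P4ha1, P4ha2 and Serpinh1. Shown are the 250 bases before the RefSeq start of 4 of them, the pair of subunits with the smallest falls, the chaperone and the gene that rose. They were searched for ACGTG, the core of the element bound by hypoxia-inducible factor (HIF), on both strands, because collagen hydroxylases are known HIF targets. Capitals mark each ACGTG or its reverse complement CACGT. P4ha1 lies on the plus strand (chr10:59323046-59323295), P4ha2 on the plus strand (chr11:54100674-54100923, which lies inside the GENCODE gene given above, past its first base), Serpinh1 on the minus strand (chr7:99353240-99353489) and Plod1 on the minus strand (chr4:147936777-147937026).
P4ha1: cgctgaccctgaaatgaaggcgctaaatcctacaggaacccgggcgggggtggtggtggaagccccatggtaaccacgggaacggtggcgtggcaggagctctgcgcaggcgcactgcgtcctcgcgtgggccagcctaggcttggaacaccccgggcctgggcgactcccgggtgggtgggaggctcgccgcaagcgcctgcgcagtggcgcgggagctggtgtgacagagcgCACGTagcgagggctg
P4ha2: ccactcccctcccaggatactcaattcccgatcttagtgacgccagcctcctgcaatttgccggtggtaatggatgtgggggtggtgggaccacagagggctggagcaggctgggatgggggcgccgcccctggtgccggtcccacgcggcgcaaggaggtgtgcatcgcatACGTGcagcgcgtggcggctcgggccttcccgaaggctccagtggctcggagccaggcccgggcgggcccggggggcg
Serpinh1: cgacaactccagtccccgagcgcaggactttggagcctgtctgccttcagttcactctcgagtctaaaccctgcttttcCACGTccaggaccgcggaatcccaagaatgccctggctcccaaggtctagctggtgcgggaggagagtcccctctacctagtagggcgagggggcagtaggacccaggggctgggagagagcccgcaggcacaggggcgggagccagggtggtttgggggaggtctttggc
Plod1: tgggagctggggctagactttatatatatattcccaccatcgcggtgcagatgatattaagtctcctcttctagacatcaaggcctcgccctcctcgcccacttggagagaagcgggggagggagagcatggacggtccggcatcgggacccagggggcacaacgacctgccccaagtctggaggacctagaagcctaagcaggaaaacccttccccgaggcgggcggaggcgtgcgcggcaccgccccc
ACGTG or its reverse complement was present once each in P4ha1, P4ha2 and Serpinh1 and absent from these letters in Plod1 and Loxl4. Of all 32851 promoters of this length, with no chromosome left out, 16.6% held it. The same letters also form part of the E-box CACGTG, which none of the 5 held. All 5 held the GC box GGGCGG or its reverse complement, as did 32.7% of all promoters, and none held CCAAT or ATTGG, found in 33.8%. A match describes the letters and is not a bound site.

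Most tested fibrillar collagen genes, which encode substrates of these enzymes, fell too. Of 11 fibrillar collagen genes 9 were tested, and 7 fell and 2 rose, with a median log2 fold change of -1.85. For this and the lists that follow, the shares over all tested genes are 37.9% lower and 35.7% higher, with a median of -0.06, and being the most abundant of a list refers to the mean CPM over all 6 libraries. Col1a2, the most abundant by mean CPM over the 6 libraries, fell from 13200 ± 803 to 1045 ± 114 CPM (SD, n = 3), the largest fall of the list (log2 fold change -3.66). In adipocytes Col3a1 stood higher, at 1697 ± 137 CPM (SD, n = 3). Col11a2 rose by 2.04 on the log2 scale and Col5a3 by 1.68. The fibrillar list summed to 29790 to 32960 CPM in preadipocytes and 4308 to 5013 CPM in adipocytes. The collagen IV chains, which form basement membrane networks, summed to 3847 to 4099 and 4396 to 5147 CPM. Of these chains, Col4a1 rose by 0.50 and Col4a5 fell by 1.65 on the log2 scale. Col4a2 had a log2 fold change of 0.13 (edgeR adjusted p = 0.16), and it passed upward with the replicate block (adjusted p = 0.0434) and without adipocyte replicate 3 (0.24, adjusted p = 0.0274). With total counts Col4a1 lost its call (log2 fold change 0.17), and Col4a2 was lower (log2 fold change -0.20, adjusted p = 0.0294). In limma on log2(TPM + 1) Col4a1 also lost its call (0.04), and Col4a2 was lower (-0.39).

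Within-library ratios set the enzymes against the summed TPM of Col1a1, Col1a2 and Col3a1, which was 10860 ± 133 in preadipocytes and 949 ± 58.7 in adipocytes (SD, n = 3), an 11.4-fold ratio. The 5 lysyl oxidases together had a log2 ratio to these collagens of -2.53, -2.33 and -2.32 in preadipocytes and -3.16, -3.47 and -3.49 in adipocytes. Relative to the collagens their sum, 80.3% of it Lox in preadipocytes, was 1.97-fold lower in adipocytes. In TPM, Lox, Loxl3 and Loxl4 fell by more than the collagens. Loxl1 (308.5 to 54.2 TPM) and Loxl2 (2.29 to 0.793 TPM) fell by less. The Serpinh1 ratio differed the other way from that of the lysyl oxidase sum, from -3.61 ± 0.13 to -2.07 ± 0.23 (SD, n = 3). Thus 2.91-fold more chaperone message was present per message of these 3 collagens. P4ha1 and P4ha2 together went from -5.89 ± 0.07 to -3.23 ± 0.23 (SD, n = 3), which is 6.32-fold higher. For each of these 3 ratios the groups did not overlap, and the exact two-sided permutation test gave p = 0.10, the smallest possible. In all, 6 ratios were computed, and at this size none could pass a threshold of 0.05 before or after adjustment.

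**Figure D4:**
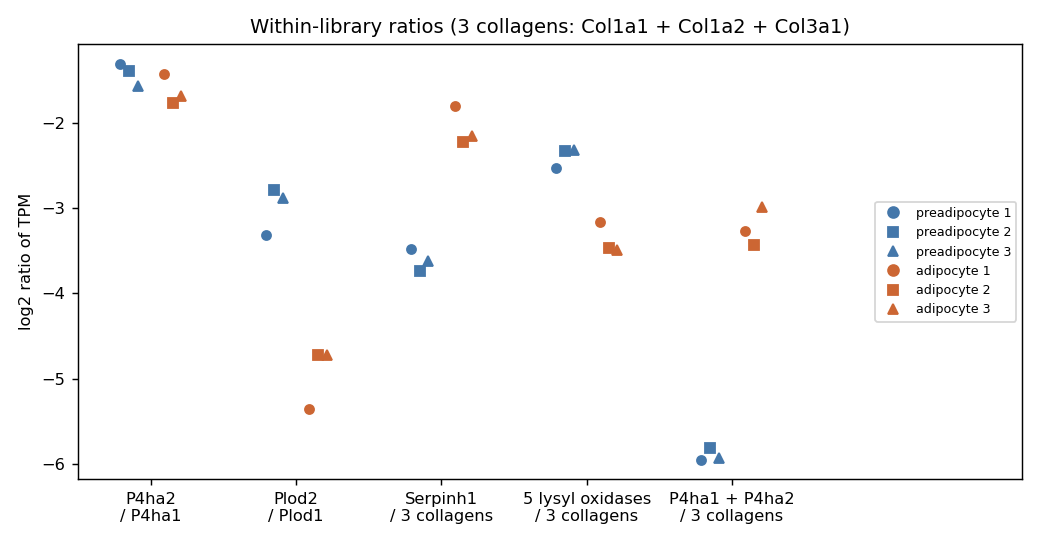
Log2 ratios of TPM within each library, preadipocytes in blue and adipocytes in orange, for pairs of enzymes and for enzymes over the sum of Col1a1, Col1a2 and Col3a1. The mean for lysyl oxidases over the collagens is -2.39 in preadipocytes and -3.37 in adipocytes, while Serpinh1 and the prolyl hydroxylase subunits lie higher over them in adipocytes.

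Other genes of collagen folding and modification in the endoplasmic reticulum were followed in a list of 17, of which 16 were tested. Of these, 13 fell, 0 rose and 3 did not pass (over all tested genes 37.9% fell and 35.7% rose), and the median log2 fold change was -1.06. P4ha3, a further catalytic subunit of prolyl 4-hydroxylase, fell most, from 21.7 ± 1.14 to 0.621 ± 0.109 CPM (SD, n = 3; log2 fold change -5.12). P4hb, the partner subunit of all 3 catalytic forms and the most abundant gene of the list, fell from 1017 ± 54.1 to 594 ± 40.2 CPM (SD, n = 3), and in adipocytes Fkbp9, a prolyl isomerase gene, stood higher at 823 ± 83.1 CPM (SD, n = 3). Plod3, the third lysyl hydroxylase, had a log2 fold change of 0.22 (edgeR adjusted p = 0.0819). It passed upward with the replicate block (adjusted p = 0.00165), DESeq2, all genes kept, or preadipocyte replicate 1, adipocyte replicate 3 or both libraries numbered 1 left out. In limma on log2(TPM + 1) it was lower (-0.31). With RLE factors Tmem38b passed upward instead (0.26).

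Genes of procollagen export, trimming and fibril assembly fell in 15 of 20 tested members (37.9% over all tested genes) and rose in 2 (35.7% over all), with a median log2 fold change of -2.42. Fmod, a small proteoglycan that binds collagen fibrils, fell from 27.3 ± 2.84 to 0.430 ± 0.039 CPM (SD, n = 3; log2 fold change -5.98). Postn, a matricellular protein and the most abundant gene of the list, fell by 3.80 on the log2 scale, and in adipocytes Sparc led the list at 1383 ± 105 CPM (SD, n = 3). Tgm2, a transglutaminase that forms a different kind of protein cross-link, rose from 1.87 ± 0.284 to 43.3 ± 5.72 CPM (SD, n = 3; log2 fold change 4.54, SE 0.15, edgeR adjusted p = 1.89e-08), and Mia2, a procollagen export gene, rose by 0.74 on the log2 scale but not past the threshold with limma on log2(TPM + 1) (0.26). All 9 tested genes of elastic fibres and their scaffolds fell (37.9% over all tested genes), with a median of -3.24. Mfap4 fell most (log2 fold change -4.59) and Fbln2 was the most abundant. Eln, which encodes elastin, measured 3.75 ± 0.966 and 2.30 ± 0.340 CPM (SD, n = 3) and lost its call without preadipocyte replicate 1 or adipocyte replicate 3 (adjusted p = 0.0644 and 0.0818).

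Of 10 tested genes that supply copper, iron and ascorbate, the cofactors of these enzymes, 4 were higher and 4 lower, near the shares over all tested genes (35.7% and 37.9%). Tfrc, the transferrin receptor, rose by 2.30 on the log2 scale, and Slc40a1, the iron exporter, fell by 2.86. Slc11a2, an iron transporter, had the highest mean CPM of the list over the 6 libraries, though in neither state alone, and rose by 0.68. The copper importer Slc31a1 rose by 1.09, the copper chaperone Atox1 rose by 0.67, and Atp7a, which loads copper into secreted enzymes, fell by 0.36. The ascorbate transporter Slc23a2 fell by 0.62 and Slc31a2, a relative of the copper importer, fell by 0.65. With total counts Atox1 lost its call (0.34, adjusted p = 0.0698), as it did in limma on log2(TPM + 1) (0.14). The call of Atp7a was lost without preadipocyte replicate 2 or 3 or adipocyte replicate 2 (adjusted p = 0.0549, 0.0635 and 0.0565).

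HIF target genes rose in 8 of 12 tested members (35.7% over all tested genes) and fell in 3 (37.9% over all), with a median log2 fold change of 1.94. The mitophagy gene Bnip3 rose by 4.75 on the log2 scale, Ldha, the most abundant over the 6 libraries though below Pgk1 in preadipocytes, by 3.16, and the oxidase gene Ero1l by 4.66, while the peptide hormone gene Adm fell by 4.05, Ndrg1 fell by 2.61 and the glucose transporter gene Slc2a1 fell by 0.97. Several genes of this list also serve glycolysis. The list does not hold the collagen hydroxylase genes described above, of which P4ha1, P4ha2 and Plod2 fell and Plod1 rose. Of the 5 oxygen-sensing hydroxylases, 4 rose and 1 fell (35.7% and 37.9% over all tested genes). Egln3 and Egln1, prolyl hydroxylases acting on HIF, rose by 4.02 and 1.58, and P4htm fell by 2.21 on the log2 scale. The calls of Hif1an, the most abundant over the 6 libraries though below Egln3 and Egln1 in adipocytes, and of Egln2 rest on small values (0.18 and 0.38). They were lost with upper-quartile factors, total counts, the effective length offset and without preadipocyte replicate 2 or 3 or adipocyte replicate 1. Hif1an also lost its call without preadipocyte replicate 1 or adipocyte replicate 2 and with at least 10 counts asked in every library, a filter that also removed P4htm. With limma on log2(TPM + 1) Hif1an was lower (-0.35) and Egln2 did not pass (-0.21). Genes of the response to TGF-beta fell in 7 of 9 members (37.9% over all tested genes) and Skil rose (0.77). Acta2 fell by 5.08 on the log2 scale, and Ltbp2, the most abundant of the list, fell by 2.30. Skil lost its call under total counts (adjusted p = 0.0963) and in limma on log2(TPM + 1) (log2 fold change 0.32).

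**Figure D5:**
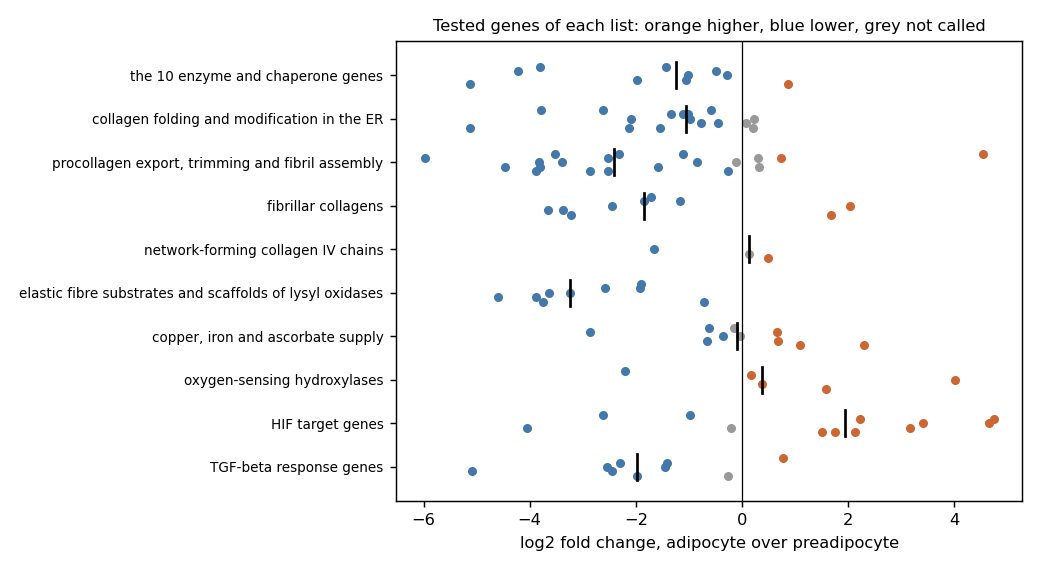
Log2 fold change, adipocyte over preadipocyte, of each tested gene in the 10 enzyme and chaperone genes and in 9 lists of related genes (orange higher, blue lower, grey not past the threshold), with a bar at each median. The medians lie at -1.25 for the 10 genes, -1.85 for fibrillar collagens and 1.94 for HIF target genes.

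For each gene of the 10, the tested gene with the most similar profile was found by the root mean square difference of centred log2(CPM + 1) over the 6 libraries, which is mostly the difference between the states. For Lox this was Slit2, a guidance ligand gene (difference 0.029), which went from 245.6 ± 22.6 to 6.33 ± 0.724 CPM (SD, n = 3). For Loxl3 it was the collagen gene Col16a1 (0.05), for Loxl4 the chemokine receptor gene Ackr3 (0.057) and for Loxl1 Clec3b (0.061). For Plod1 it was the cell cycle inhibitor gene Cdkn1a (0.036), for Serpinh1 Bcl3 (0.042), for Plod2 Nin (0.033), for Loxl2 Taf1a (0.036) and for P4ha1 Fer (0.023). For P4ha2 it was Muc1 (0.045), whose log2 fold change was -1.13, since the added 1 compresses the profile of a gene at 0.454 to 1.01 CPM. Such neighbours were few for Lox, with 11 genes within 0.2, and many for P4ha1, with 2460.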

How the data were processed

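Per the file headers, the authors deposited 1 RSEM-type gene table per library, with the expected count (an estimate that shares out reads matching several genes), TPM, FPKM and the transcript length weighted by isoform. The submitters' processing notes name RSEM, both Bowtie and Bowtie2, DESeq2 and the builds GRCm38 and mm10. For tool versions, annotation and strand, the sources used here give nothing. The TPM columns deposited by the authors sum to a constant in every library, and the deposited FPKM columns served in 1 alternative for the ratios. Identifiers without version were matched to GENCODE M21 (54723 of 54752).

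Expected counts were rounded and tested with the quasi-likelihood test of edgeR 4.0.16 (R 4.3.3) after filterByExpr and TMM, with a model of group alone and an adjusted p (Benjamini-Hochberg) threshold of 0.05. The SE given with each edgeR log2 fold change was derived from the test, as the absolute log2 fold change over the square root of the F statistic. TMM factors were 1.11 to 1.13 in preadipocytes and 0.88 to 0.90 in adipocytes. Alternatives used limma 3.58.1, DESeq2 1.42.0, other factors, filters and left-out libraries. The code was run on simulated data in which few genes changed, equally up and down, unlike these libraries. That run does not test the scaling used here. No 2 libraries were duplicates (lowest chi-square per degree of freedom 2.99). Libraries of the same number deviated together (r = 0.73, 0.32 and 0.34 over 12511 genes), so 1 alternative fitted the numbers as pairs in a replicate block. The main model and the permutation tests did not use the numbers. The pairing comes from the titles and these correlations. Preadipocyte 2 reached 0.57 with adipocyte 3, above its 0.32 with adipocyte 2, so the match by number is clear for number 1 alone.

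The 10 genes, the lists and the tests were chosen with earlier results of these data known. Named were the 10 genes, the largest rise, the largest fall and the most abundant gene of each list, and the nearest profile of each of the 10, passing over clone names. Other genes were chosen after their values were seen. Results of other list genes are not reported here.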

Additional observations from a re-analysis of the deposited data

How the results depend on the processing

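Each of the 10 genes kept its direction under all 17 alternatives, and the calls of 9 of them held, with P4ha1 the exception (8 lower genes in place of 9 under 5 alternatives). The replicate block changed no call among the 10, with 9 lower and 1 higher, and gave P4ha1 an adjusted p of 0.000895. In the related lists it gave 63 lower and 25 higher genes in place of 60 and 22, among those added Plod3, Col4a2 and Pepd as higher and Ccs and Kdm3a as lower. With Col1a1 alone as the collagen, the change in log2 ratio was 1.78 for Serpinh1 (1.54 with 3 collagens), -0.74 for the 5 lysyl oxidases (-0.98) and 2.90 for P4ha1 and P4ha2 (2.66). Only the collagen term of these ratios was changed, and Col1a1 went from 1780 ± 46.3 to 132.7 ± 16.8 TPM (SD, n = 3). Why Col1a1 differed from the sum of 3 collagens was not tested. Leaving out 1 library moved the change in Lox share between -45.72 and -39.65 percentage points. The lists held 53 to 70 lower and 16 to 26 higher genes over the alternatives. Depth limits Loxl4 in adipocytes and Loxl2 most.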

Other observations

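The deposited tables also give, per library, the mean transcript length of a gene weighted by its estimated isoform abundances. For Loxl3 it was 3337 to 3468 bases in preadipocytes and 3594 to 3783 bases in adipocytes, without overlap, between annotated protein-coding transcripts of 3252 and 4098 bases. The adipocyte values rest on 158 to 201 counts, and Htra2 overlaps part of the gene. For Loxl4 it was 3738 bases in each preadipocyte library and 3236 to 3546 bases in adipocytes, from at most 37 counts. For the other 8 genes the ranges overlapped or were constant.

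Libraries numbered 1 held the lowest weighted length of Lox in both states (4025 bases against 4128 and 4174, and 3965 against 4143 and 4147) and the lowest Lox share of its family. The labels do not call the numbers a batch.

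Among markers of other cell types, Des rose from 1.51 ± 0.290 to 66.01 ± 8.27 CPM (SD, n = 3) and Myh11 from 0.486 ± 0.092 to 31.7 ± 2.62 CPM (SD, n = 3), while Myod1 and Myog had 0 counts in all libraries. The skeletal muscle list summed to 1.34 to 1.996 CPM in preadipocytes and 61.7 to 77.5 CPM in adipocytes, with 2 of 4 genes tested and both higher. Actg2, the other tested gene of the smooth muscle list, fell from 1.76 ± 0.0918 to 0.148 ± 0.108 CPM (SD, n = 3; log2 fold change -3.53). That list summed to 2.33 to 2.40 and 28.99 to 33.6 CPM. Runx2, an osteoblast factor, fell by 3.83 on the log2 scale and Sox9, a chondrocyte factor, fell by 3.79 on that scale. Sp7, another osteoblast factor, rose by 2.72 on the log2 scale, from 0 to 4 counts per preadipocyte library to 10 to 18 per adipocyte library. Osteoblast markers summed to 75.2 to 78.9 and 5.93 to 6.40 CPM, and chondrocyte markers to 81.02 to 97.5 and 5.62 to 7.47 CPM. The part of these genes in the results above was not tested.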
